A study of Mus musculus with 5 samples.

Results

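The comparison concerned the protein-coding genes at which H3K27me3, the trimethylated form of lysine 27 of histone H3, was left over by EZHIP and by H3.3 K27M. In each of the 2 lists of enriched regions, peaks on chromosomes 1 to 19 that lay up to 10000 bp apart were joined. A gene was a member when its start site, the 5′ end of the annotated gene, lay inside a joined peak of either list. Of 21418 protein-coding genes on these chromosomes, 2219 were members. A start site in both lists was found for 1493 genes (6.97% of all genes), in the K27M list alone for 440 genes (2.05%) and in the EZHIP list alone for 286 genes (1.34%).

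All cells were mouse embryonic fibroblasts (MEFs), connective tissue cells grown in culture, with an Eed allele flanked by loxP sites, which was deleted only in a separate clone. One line stably expressed H3.3 K27M and the other human EZHIP, each delivered by a lentivirus from a vector with the EF1a promoter and selected with puromycin. A line with H3.3 K27R, made in the same way, gave another list, used here only as the map of regions marked in the absence of K27M and EZHIP. Each line had 1 library, and the parental cells and the clone lacking Eed were not analysed here. The lists hold positions without heights or read counts, so that depth is unknown, every comparison below is a count or a ratio between single libraries, and none could be set against replicate spread. Start sites of 10 genes that mark fibroblasts, among them Col1a1, Vim and Thy1, lay in no region of any of the 3 lists.

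H3K27me3 is laid down by Polycomb Repressive Complex 2 (PRC2), whose catalytic subunit EZH2 works together with EED and SUZ12. The complex gathers at CG-rich promoters of developmental regulators that a cell does not use, and the mark spreads outwards from there. K27M histones and EZHIP both bind PRC2 and inhibit its methyltransferase activity.

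The 250 bases before the start site are printed below for 6 genes that stand for the 3 classes, read along the strand of the gene from the NCBIM37 (mm9) sequence. They show how differently CG-rich the start sites within 1 class can be. Capitals mark every CG dinucleotide, which reads the same on both strands. Sp140 (chr1:87496703-87496952, plus strand) and Pax3 (chr1:78193710-78193959, minus strand) were in the K27M list alone. H2-M10.6 (chr17:36948866-36949115, plus strand) and Lrrc16b (chr14:56109680-56109929, plus strand) were in the EZHIP list alone. The H2-M10.6 start site lay in a gap filled by joining, with no deposited EZHIP peak over it. Pax2 (chr19:44830289-44830538, plus strand) and H2-T3 (chr17:36327233-36327482, minus strand) lay under wide peaks of both lists.
Sp140: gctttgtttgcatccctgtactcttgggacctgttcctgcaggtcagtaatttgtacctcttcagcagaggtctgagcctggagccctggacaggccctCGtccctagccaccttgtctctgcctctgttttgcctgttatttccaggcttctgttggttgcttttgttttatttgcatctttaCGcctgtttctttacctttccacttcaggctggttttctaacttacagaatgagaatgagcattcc
Pax3: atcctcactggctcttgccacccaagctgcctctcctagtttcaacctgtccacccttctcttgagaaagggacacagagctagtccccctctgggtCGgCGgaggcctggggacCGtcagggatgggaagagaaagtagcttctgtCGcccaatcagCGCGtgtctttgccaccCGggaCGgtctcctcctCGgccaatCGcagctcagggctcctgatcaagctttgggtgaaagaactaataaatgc
H2-M10.6: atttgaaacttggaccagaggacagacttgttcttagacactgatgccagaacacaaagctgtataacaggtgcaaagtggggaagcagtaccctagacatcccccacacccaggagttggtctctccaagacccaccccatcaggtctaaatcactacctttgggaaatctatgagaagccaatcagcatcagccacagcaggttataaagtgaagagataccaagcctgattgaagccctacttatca
Lrrc16b: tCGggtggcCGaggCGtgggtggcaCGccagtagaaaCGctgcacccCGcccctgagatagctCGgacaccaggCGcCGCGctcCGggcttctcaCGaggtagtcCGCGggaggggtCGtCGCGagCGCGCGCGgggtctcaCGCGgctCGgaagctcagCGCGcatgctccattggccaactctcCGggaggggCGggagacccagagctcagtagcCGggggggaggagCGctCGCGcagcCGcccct
Pax2: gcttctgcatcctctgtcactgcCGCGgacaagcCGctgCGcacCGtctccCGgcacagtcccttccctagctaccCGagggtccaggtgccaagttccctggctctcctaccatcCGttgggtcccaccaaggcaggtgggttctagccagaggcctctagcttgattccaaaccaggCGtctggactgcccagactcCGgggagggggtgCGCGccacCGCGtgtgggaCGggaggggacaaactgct
H2-T3: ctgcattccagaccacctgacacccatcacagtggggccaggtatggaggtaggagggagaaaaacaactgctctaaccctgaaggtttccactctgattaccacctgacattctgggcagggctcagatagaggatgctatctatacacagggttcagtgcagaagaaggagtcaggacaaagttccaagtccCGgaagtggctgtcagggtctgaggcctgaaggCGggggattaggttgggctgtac
These windows hold 2 CG dinucleotides at Sp140, 10 at Pax3, 0 at H2-M10.6, 33 at Lrrc16b, 15 at Pax2 and 2 at H2-T3. At least 1 CG was present in 92.6% of such windows over all 21418 genes, in 99.1% for genes in both lists, in 97.5% for K27M only and in 96.5% for EZHIP only. Among all genes, 95.9% had no more CG in this window than Lrrc16b, and 7.43% had none, like H2-M10.6.

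The first comparison asked how far the genes left marked by either inhibitor were the same. The K27M list held start sites of 1933 genes in 1624 of its 2991 joined peaks, and the EZHIP list those of 1779 genes in 1497 of its 3491 joined peaks. Genes in both lists made up 77.2% of the K27M genes (95% exact Clopper-Pearson interval 75.3 to 79.1%) and 83.9% of the EZHIP genes (82.1 to 85.6%), where the intervals cover counting error only and treat genes as independent. Genes found in the K27M list alone outnumbered those in the EZHIP list alone 1.54-fold, although the joined peaks covered nearly the same length, 45.0 Mb in K27M and 41.9 Mb in EZHIP, a ratio of 1.07. This order reversed, with 259 genes against 435, when K27M was limited to its widest peaks of the same covered length as EZHIP. It also reversed when a start site within 5000 bp of a peak was counted, with 482 against 534. The first setting dropped all K27M peaks narrower than 4.80 kb, while EZHIP kept peaks down to 1.20 kb. By its design that setting lowers the K27M-only count and raises the EZHIP-only count, here and wherever it is used below. Nearly every member lay in a region marked in the K27R line, namely 1493 of 1493 shared genes, 436 of 440 K27M-only genes and 278 of 286 EZHIP-only genes.

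Genes in 1 list alone differed in how far the other list lay from them. Among the K27M-only genes, 76 (17.3%) had an EZHIP peak within 1 kb of the start site, and 239 (54.3%) had none within 50 kb. Among the EZHIP-only genes, 30 (10.5%) had a K27M peak within 1 kb, and 164 (57.3%) had none within 50 kb. Each class thus held genes right beside a peak of the other list and genes in long stretches where that list had none. The K27M peak itself overlapped no EZHIP peak at 271 K27M-only genes (61.6%), and the EZHIP peak overlapped no K27M peak at 191 EZHIP-only genes (66.8%). At 44 EZHIP-only genes (15.4%) and 8 K27M-only genes (1.82%) the start site lay in a gap that was filled by joining, so that no deposited peak held it.

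Some genes fell on 1 side by a narrow distance, and the nearest of each kind are named here. The start sites of Ccdc147, Cadps and Ahdc1 lay 1, 7 and 25 bp inside the edge of their K27M peaks. Those of Scnn1g, Kcnj3 and Cd24a were in a K27M peak and 8, 20 and 26 bp outside an EZHIP peak. On the other side, Ffar3, Zfp167 and H2-Eb1 lay 3, 11 and 27 bp inside their EZHIP peaks, and Lrrc34, Tspan33 and Eml2 lay 10, 22 and 31 bp outside a K27M peak. Peaks are built from bins of 200 bp, so that all 12 distances are shorter than 1 bin. Further genes also lay less than 1 bin inside their own peak, among them Kcnq5 (0.177 kb), Foxa3 (0.113 kb) and Hhex (0.176 kb).

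Peaks over genes in 1 list were narrower than those over shared genes. The same peaks set the classes, so that widths and edge distances are not independent of class and serve as description. Around shared genes the K27M peak had a median width of 14.8 kb (quartiles 8.0 and 38.4 kb) and reached 6.16 kb before and 7.24 kb after the start site. The EZHIP peak over the same genes had a median of 11.8 kb (6.20 and 30.6 kb) and reached 4.39 kb before and 5.6 kb after it. K27M-only genes lay under peaks of 5.80 kb (3.60 and 14.7 kb), with 2.15 kb before and 3.10 kb after the start site, and EZHIP-only genes under peaks of 7.0 kb (3.60 and 21.1 kb), with 2.84 and 3.08 kb. Start sites within 1 kb of an edge of their own peak made up 34.5% of K27M-only and 29.7% of EZHIP-only genes, while among shared genes they made up 7.17% for the K27M peak and 10.8% for the EZHIP peak.

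Genes in 1 list alone were ranked by a margin, measured on the joined peaks. It was the smaller of the start site's distances to its own peak's nearer edge and to the nearest peak of the other list. At Sp140, which encodes a nuclear body protein of immune cells, a K27M peak of 49.6 kb (chromosome 1, 87475801 to 87525400) reached 21.2 kb before and 28.4 kb after the start site, and the nearest EZHIP peak was 334 kb away. Pax3, a regulator of neural crest and muscle precursors, lay in a K27M peak of 38.6 kb (chromosome 1, 78179601 to 78218200) with 24.5 kb before and 14.1 kb after it. The EZHIP peak nearest to the Pax3 start site was 113 kb away, and the K27R line had a region of 67.8 kb there. Gas8, which encodes a regulator of ciliary dynein, had a K27M peak of 31.2 kb and its nearest EZHIP peak 341 kb away. Smok2a, a sperm motility kinase gene, had a K27M peak of 54.2 kb and its nearest EZHIP peak at 329 kb.

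The other 8 of these 12 genes had an EZHIP peak closer by. Nr2f1, an orphan nuclear receptor gene of the developing brain, lay in a K27M peak of 42.6 kb that reached 10.2 kb before and 32.4 kb after the start site, and an EZHIP peak began 11 kb after it. Ttc6 lay in the K27M peak of 57.4 kb that also held Foxa1, a pioneer factor of endoderm, while the EZHIP peak over Foxa1 spanned 27 kb and ended 7.30 kb short of the Ttc6 start site. At H2-T22, a non-classical class I gene, the K27M peak of 222 kb held the start site and EZHIP peaks lay on both sides of it, the nearer at 7.49 kb. Trim54, Fcgr1, Atp6v1b1, Gpr6 and Heatr7b1 had EZHIP peaks 7.04 to 10.9 kb away. The start sites of Trim54 and Ttc6 lay in joined gaps.

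In the EZHIP list, Smc1b, the meiosis-specific cohesin subunit, led this ranking. Its EZHIP peak of 69.0 kb (chromosome 15, 84918201 to 84987200) reached 24.8 kb before and 44.2 kb after the start site, and the nearest K27M peak was 181 kb away. H2-M10.6, a non-classical class I gene, lay in an EZHIP peak of 67.0 kb and 399 kb from the nearest K27M peak. Both start sites lay in joined gaps, so that the deposited EZHIP peaks flanked them.

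Among the other EZHIP-only genes of this ranking, the distance to the K27M list varied widely. Mobp, which encodes a myelin protein of oligodendrocytes, had an EZHIP peak of 29.2 kb and its nearest K27M peak at 152 kb. Hydin, a component of motile cilia, had one of 26.0 kb with the nearest K27M peak at 96.3 kb. Pm20d2, a peptidase gene, had one of 39.6 kb with the nearest K27M peak at 42.1 kb. Lrrc16b, whose CG-rich upstream window is printed above, lay in an EZHIP peak of 72.8 kb between K27M peaks, the nearer 19.1 kb away. Scn8a, Napsa, Zan and Csf2rb had K27M peaks 7.58 to 17.1 kb from the start site.

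**Figure D1:**
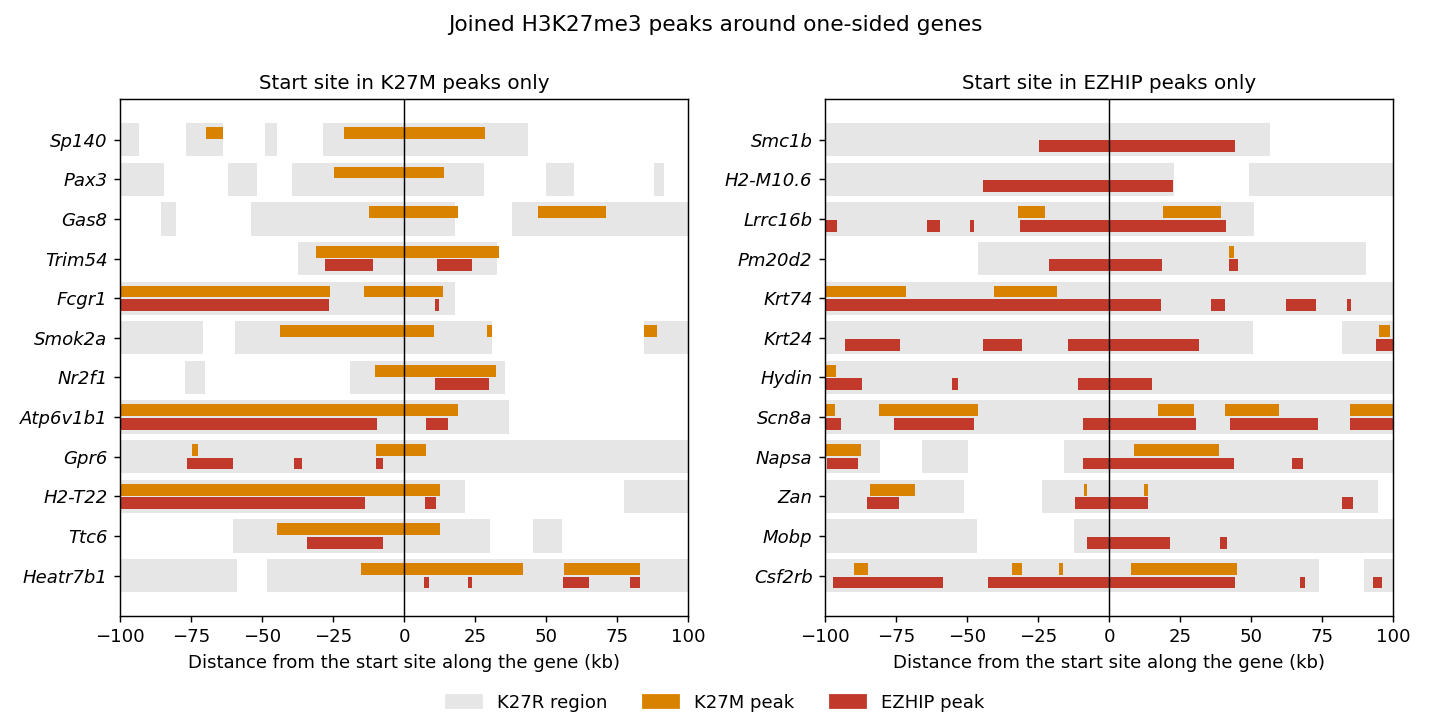
Joined peaks within 100 kb of the start site for the 12 genes with the largest margin in each class, with distance in kb along the direction of the gene on the horizontal axis, K27M peaks in orange, EZHIP peaks in red and K27R regions in grey. No EZHIP peak is drawn at Sp140, Pax3 and Gas8 and no K27M peak at Smc1b and H2-M10.6, whereas Trim54, H2-T22, Lrrc16b and Csf2rb have peaks of the other list on at least 1 side of the start site.

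Gene families were examined next, by counting the members in each class, with the families ordered by their role. The shares to read them against are 6.97% of all genes in both lists, 2.05% in K27M alone and 1.34% in EZHIP alone. Homeobox genes, which encode transcription factors of body patterning, were mostly in both lists, with 113 of 179 shared (63.1%), 13 in K27M alone (7.26%) and 7 in EZHIP alone (3.91%). Nkx genes had 12 of 14 in both. Of the 69 homeobox genes outside the named families, 49 were in both, 4 in K27M alone and 0 in EZHIP alone.

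Single homeobox genes in the K27M list alone lay far from any EZHIP peak in several cases. Irx5, of the Iroquois family, had a K27M peak of 19.4 kb and the nearest EZHIP peak at 315 kb. Alx4, a regulator of limb and skull, had one of 13.4 kb with EZHIP at 213 kb. Pax1, which acts in the sclerotome, had one of 8.80 kb with EZHIP at 163 kb, and Lhx6, of forebrain interneurons, one of 23.8 kb with EZHIP at 91.5 kb. Phox2a and Hhex were in K27M peaks of 1.60 and 2.60 kb that reached 0.4 and 0.2 kb past the start site on their nearer side. The opposite was seen at Lmx1b, of dorsal limb and midbrain, where an EZHIP peak of 20.6 kb covered the start site and the nearest K27M peak was 96.2 kb away.

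The Hox clusters went the other way from the rest of the homeobox genes. Of 40 annotated Hox genes (Hoxa3 is listed under 2 identifiers), 20 were in both lists, 2 in K27M alone and 6 in EZHIP alone. At the Hoxa cluster the K27M peak ran from 52172601 to 52226800 on chromosome 6 (54.2 kb) and the EZHIP peak from 52159201 to 52226400 (67.2 kb). Both ended close together at the Hoxa13 side, and at the other end EZHIP alone held the start sites of Hoxa7, Hoxa6 and both identifiers of Hoxa3. These 4 start sites were in joined gaps, and Hoxa7 was 0.748 kb outside the K27M peak. Joined EZHIP peaks covered all of Hoxa7, but 36.4% of Hoxa6 and only 9.22 and 8.28% of the 2 Hoxa3 entries. Hoxa6 and Hoxa3 also lay outside the K27R region, which held Hoxa7.

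At the Hoxd cluster on chromosome 2, the K27M peak ended at 74539800 and the EZHIP peak at 74553400. The start sites of Hoxd8 and Hoxd3 lay between these ends, 2.87 and 10.2 kb outside the K27M peak and inside a deposited EZHIP peak. Joined EZHIP peaks covered all of Hoxd8 and 9.40% of Hoxd3. The Hoxb cluster on chromosome 11 showed the reverse, with the K27M peak (155 kb) ending at 96158200 and the EZHIP peak (138 kb) at 96145200, so that Hoxb7 and Hoxb6 were 0.371 and 8.59 kb outside EZHIP. Hoxb8 and Hoxb9, next to them, were in both lists. In all 3 clusters a shared peak thus stopped earlier in 1 of the lists. Without joining, 2 Hox genes were in EZHIP alone and 2 in K27M alone.

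Transcription factors of other families were in K27M alone 14 times and in EZHIP alone 1 time among 185 genes, of which 79 were in both (42.7%). Forkhead genes had 14 of 40 in both, 6 in K27M alone (15.0%) and 0 in EZHIP alone. Foxc2, of mesenchyme and lymphatic vessels, lay in a K27M peak of 8.80 kb (chromosome 8, 123637401 to 123646200), and the nearest EZHIP peak was 32.7 kb away. Its neighbour Foxf1a, of the lung and gut mesenchyme, lay in a K27M peak of 42 kb with an EZHIP peak 0.886 kb from the start site. Foxd2 resembled Foxf1a, with a K27M peak of 42 kb and EZHIP at 1.5 kb.

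The remaining 3 forkhead genes were under narrow K27M peaks. Foxi2, Foxo6 and Foxa3 had K27M peaks of 5.00, 3.60 and 3.20 kb and EZHIP peaks at 1912, 71.2 and 47.5 kb. In EZHIP alone 0 forkhead genes were found under all 12 alternatives, and in K27M alone 4 to 7.

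Single regulators of organ formation were in the K27M list alone as well. Sox9, of cartilage and testis, lay in a K27M peak of 5.40 kb centred on its start site (2.7 kb on each side), and the nearest EZHIP peak was 1714 kb away. Gata6, of endoderm and heart, had a K27M peak of 7.80 kb with EZHIP at 346 kb. Eomes, of early mesoderm and cortical progenitors, had one of 6.0 kb with EZHIP at 127 kb. Tbr1 and Tcfap2d were the other T-box and Tfap2 genes in K27M alone. Neural basic helix-loop-helix genes, such as Atoh1 and Neurod1, had 16 of 22 in both and 0 in either list alone. Nuclear receptor genes had 8 of 43 in both and 3 in K27M alone (Esrrg, Nr5a1 and Nr2f1), of which Nr5a1 was 0.0620 kb from an EZHIP peak.

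Signalling genes were split evenly, with 26 of 108 in both, 7 in K27M alone and 7 in EZHIP alone. The Wnt pathway had members on each side. Wnt4 and Wnt6, both Wnt ligands, were in K27M peaks of 10.0 and 9.60 kb, and the nearest EZHIP peaks were 207 and 59.5 kb away. Wnt5a was in an EZHIP peak of 8.80 kb, 3.06 kb from a K27M peak.

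Among 20 Frizzled receptors and secreted Wnt antagonists, 3 were in both, 4 in EZHIP alone and 1 in K27M alone. Sfrp2, a secreted antagonist that binds Wnt proteins, lay in an EZHIP peak of 7.80 kb (chromosome 3, 83565801 to 83573600), and the nearest K27M peak was 622 kb away. Frzb, of the same kind, lay in an EZHIP peak of 3.60 kb with K27M at 917 kb. Fzd3, a Frizzled receptor gene, lay in a joined gap of an 8.20 kb EZHIP peak with K27M at 157 kb, and Wif1 was 0.185 kb from a K27M peak. Dkk2, which antagonises the Wnt co-receptors, was the gene in K27M alone, in a peak of 3.8 kb with EZHIP at 935 kb. Fgf5 and the inhibin gene Inha were also in EZHIP alone, while Fgf12, Fgf23, Bmp3 and Gdf7 were in K27M alone. Fgf5 lay 0.198 kb outside a K27M peak and Gdf7 0.0400 kb inside its own peak, each less than 1 bin. Fgf23 lay in a joined gap, 1.08 kb from EZHIP, and Inha lay in no K27R region.

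Ion channel, receptor and transporter genes were in both lists in 129 of 674 cases, and among those in 1 list 44 were in K27M alone and 11 in EZHIP alone. Of 94 potassium channel genes, 38 were in both lists (40.4%), 13 in K27M alone and 0 in EZHIP alone. Their K27M peaks spanned 1.8 to 94.0 kb with a median of 5.00 kb, and 8 of the 13 peaks overlapped no EZHIP peak. Kcnq5, which encodes a channel of the M current, lay in a K27M peak of 1.8 kb with the nearest EZHIP peak at 1482 kb. Its start site was only 0.177 kb inside that K27M peak, less than 1 bin. Kcnc2, a Shaw-type channel gene, had one of 5.20 kb with EZHIP at 1256 kb. Kcnd2, of the A-type current, had one of 5.00 kb with EZHIP at 643 kb.

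Of 14 channel genes with tandem pore domains (Kcnk), a subgroup chosen after the values were seen, 6 were in both lists and Kcnk2, Kcnk9, Kcnk10 and Kcnk18 were in K27M alone. Kcnk9 and Kcnk2 had K27M peaks of 4.80 and 7.80 kb with EZHIP at 653 and 594 kb. Kcnk10 and Kcnk18 were 0.750 and 6.74 kb from an EZHIP peak. Among the inward rectifiers, Kcnj2 and Kcnj3 were 0.123 and 0.0200 kb from one, so that their place in K27M alone rested on less than 1 bin. With K27M trimmed to the same covered length, 8 potassium channel genes were in K27M alone.

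Glutamate receptor genes had 13 of 26 in both, 6 in K27M alone and 0 in EZHIP alone. Grik3, a kainate receptor subunit, lay in a K27M peak of 8.60 kb with EZHIP at 439 kb, and Grin2a, an NMDA receptor subunit, in one of 2.20 kb with EZHIP at 198 kb. Grik2, Grm2 and Grm7 had an EZHIP peak within 5 kb of the start site. Trimming K27M to the same covered length left 2 in K27M alone and 2 in EZHIP alone. Among 40 sodium and calcium channel genes, 5 were in K27M alone (Cacna1s, Cacna2d3, Cacnb2, Cacng5 and Scn3b). Cacnb2 and Cacna2d3 were 809 and 626 kb from an EZHIP peak. In EZHIP alone was 1, the Scn8a of the ranking above, which is a short annotated entry (chromosome 15, 100763860 to 100771229).

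Solute carrier genes, a large family of membrane transporters, were on both sides, with 45 of 358 shared, 11 in K27M alone (3.07%) and 7 in EZHIP alone (1.96%). Slc35f1 and Slc5a8 were 661 and 369 kb from an EZHIP peak. Slc26a5, which encodes the motor protein of outer hair cells, was in an EZHIP peak of 1.20 kb with K27M at 474 kb. With a start site counted within 5000 bp of a peak, or K27M trimmed to the same covered length, 15 of these genes were in EZHIP alone.

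Genes of cell adhesion and axon guidance were also more often in K27M alone, with 10 of 138 against 1 in EZHIP alone and 24 in both. With K27M trimmed to the same covered length the axon guidance genes among them turned, to 3 in K27M alone and 4 in EZHIP alone. Epha5 and Epha6, ephrin receptor genes, lay in K27M peaks of 4.4 and 2.80 kb, and the nearest EZHIP peaks were 4103 and 925 kb away. The netrin receptor genes Unc5d and Dcc were in K27M peaks of 7.20 and 7.0 kb, with EZHIP at 1851 and 1272 kb. Cdh11, a cadherin of mesenchymal cells, was in a K27M peak of 4.20 kb with EZHIP at 1385 kb. Other members in K27M alone had EZHIP close by, at 0.487 kb for Efna3, 1.28 kb for Pcdh10 and 2.23 kb for Pcdh17. Sema6d, a semaphorin gene, was the single gene of this group in EZHIP alone, under a peak of 2.0 kb with K27M at 517 kb. The start sites of Efna3 and Sema6d lay only 0.113 and 0.104 kb inside their own peaks, less than 1 bin. Of the 24 clustered protocadherin genes, 0 were in either list.

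Keratin genes, which encode the intermediate filaments of epithelia and hair, had the largest excess of EZHIP-only over K27M-only genes among the 46 families counted. Of 97 keratin and keratin-associated protein genes, 7 were in both lists, 10 in EZHIP alone (10.3%) and 0 in K27M alone. Krt74, Krt2 and Krt76 shared an EZHIP peak of 173 kb on chromosome 15, from 101575601 to 101749000. K27M peaks lay 18.3, 14.0 and 8.55 kb from these start sites and inside the EZHIP peak. Krt84, Krt75, Krt6a and Krt78, of the same cluster, were in EZHIP peaks of 5.40, 36.4, 10.4 and 6.60 kb.

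A second keratin cluster, on chromosome 11, had Krt24, Krt25 and Krt28 in EZHIP peaks of 46.2, 13.8 and 19.4 kb. The nearest K27M peaks were 95, 133 and 185 kb from these 3 start sites. All 10 keratin genes lay in K27R regions, 512 kb long on chromosome 15 and 318 kb on chromosome 11, and their start sites were poor in CG (1.00 to 3.20 per 100 bp). In 3 of the 10 (Krt25, Krt6a and Krt74) the start site was in a joined gap. The count in K27M alone was 0 under all 12 alternatives, and that in EZHIP alone fell to 3 without chromosome 15.

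Olfactory receptor genes, the largest family counted, were seldom marked, with 8 of 1081 in both, 2 in K27M alone and 5 in EZHIP alone. Olfr311 and Olfr313, neighbours on chromosome 11, lay in EZHIP peaks of 11.8 and 3.60 kb, and the nearest K27M peaks were 99.8 and 124 kb away. These shares (0.740%, 0.185% and 0.463%) were below those over all genes. Vomeronasal receptor genes had 0 of 319 in either list, and Zfp zinc finger genes had 4 of 362 in both, 4 in K27M alone and 3 in EZHIP alone.

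**Figure D2:**
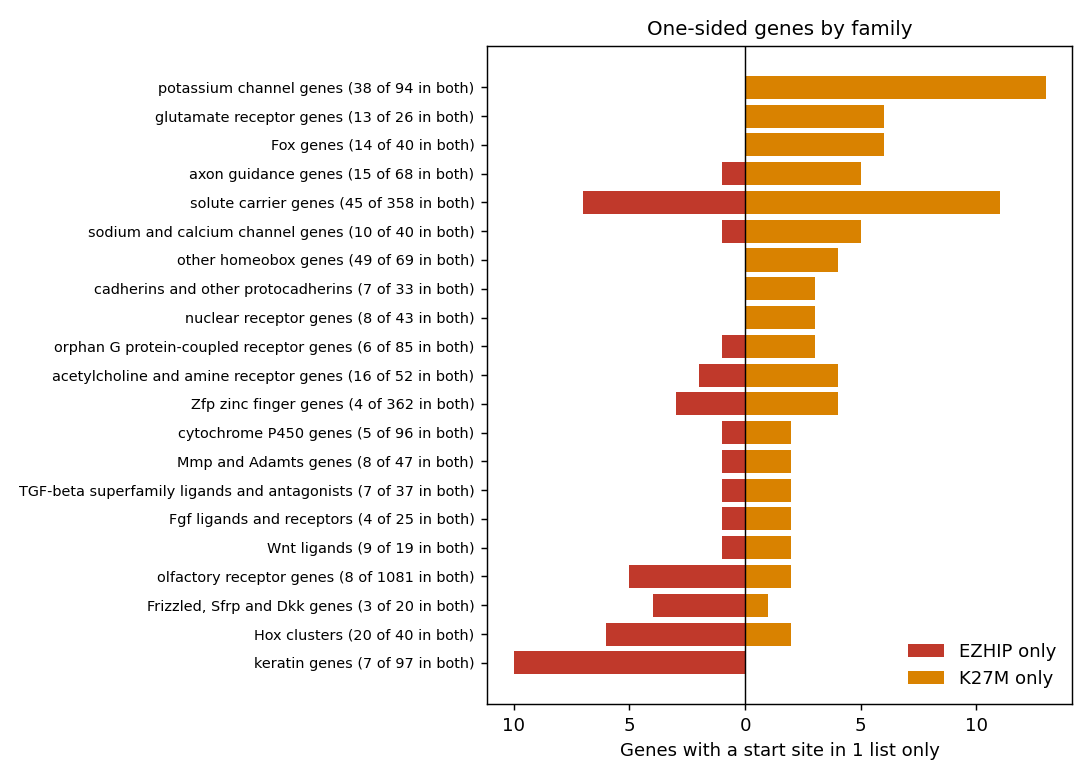
Number of genes with a start site in EZHIP peaks alone (red, to the left) and in K27M peaks alone (orange, to the right) for the 21 families with at least 3 such genes, on a linear axis of gene counts, with the number shared by both lists beside each name. Potassium channel (13), glutamate receptor (6) and forkhead (6) genes extend only to the right, and keratin genes (10) only to the left.

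Width was compared at the shared genes to ask how much of the mark each inhibitor left around the same start sites. The K27M peak was the wider at 1015 of 1493 genes (68.0%), the EZHIP peak at 439 (29.4%), and 39 had the same width. The median ratio of K27M to EZHIP width was 1.20, with quartiles of 0.950 and 1.67. Its 95% order-statistic interval, 1.16 to 1.24, covers counting error only and treats genes as independent, although some share a peak. Over the 12 alternatives the median ratio ran from 1.14 to 1.42, beyond this interval. At 899 genes (60.2%) the EZHIP peak lay wholly inside the K27M peak, and at 302 (20.2%) the K27M peak lay inside the EZHIP peak. K27M reached farther before the start site at 992 genes and farther after it at 1005. Peaks differed in width by 2-fold or more at 231 genes in favour of K27M and at 95 in favour of EZHIP.

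The families differed in this ratio. At 12 of 12 shared Nkx genes the K27M peak was the wider, with median widths of 46.3 kb in K27M and 25.8 kb in EZHIP. At 15 of 16 neural basic helix-loop-helix genes it was the wider as well, with a median ratio of 1.83. Atoh1, which drives hair cell and granule neuron fate, had a K27M peak of 27.4 kb and an EZHIP peak of 8.60 kb. The reverse held at Hox genes, where EZHIP was wider at 17 of 20 (median ratio 0.900, range 0.787 to 1.12), and at 5 of 7 keratin genes (median 0.285). Neighbouring Hox and keratin genes share peaks, so that these counts rest on few peaks. Part of them lie on chromosome 15, where the ratio of EZHIP to K27M cover was 1.8. Without that chromosome 13 of the 20 shared Hox genes remained, and Krt82 and Krt72-ps of the keratin genes lie on it. The widths of these families were not compared without it.

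Genes under wide peaks of both lists were picked by the width of the shorter peak, a choice that leaves out wide but unequal peaks, and their widths are given as a description. Pax2, a regulator of kidney and inner ear, lay in a K27M peak of 319 kb (chromosome 19, 44652201 to 44971200) and an EZHIP peak of 311 kb (44657801 to 44969000), which reached 178.3 and 172.7 kb before its start site and 140.7 and 138.5 kb after it. Lhx1, of kidney and head organiser, had 147 kb in K27M and 142 kb in EZHIP. Clec4f had 162 and 159 kb, Rasgrp2 had 141 and 144 kb, and H2-T3 had 222 and 183 kb. Olig2, of oligodendrocytes and motor neurons, differed more, with 281 kb in K27M and 154 kb in EZHIP. There the K27M peak reached 151.0 kb before the start site and the EZHIP peak 27.4 kb, while after it they reached 130.2 and 126.2 kb.

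Other shared genes had very unequal peaks. Dbx1, a homeobox gene of spinal interneurons, lay in a K27M peak of 22.2 kb and an EZHIP peak of 1.20 kb, a ratio of 18.5. Nags, of the urea cycle, had 60.4 kb in K27M and 3.40 kb in EZHIP, and Faah, which breaks down fatty acid amides, had 147 and 11.2 kb. At Faah other EZHIP peaks lay too far off to be joined, and EZHIP peaks together covered 70.9% of the gene, so that this ratio compares the peaks over the start site and not the cover of the gene. The H2-T23 start site lay near an end of the K27M peak of 222 kb that also held H2-T22 and H2-T3, with an EZHIP peak of 3.60 kb over it and a ratio of 61.8. H2-T3 itself lay in an EZHIP peak of 183 kb.

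Genes with the lowest ratios had a short K27M peak over the start site inside a long EZHIP peak. Shank1, a scaffold protein of the postsynaptic density, lay in a K27M peak of 3.60 kb and an EZHIP peak of 66.6 kb, a ratio of 0.0541. A further K27M peak, not joined to the first, lay in the gene, and K27M peaks together covered 69.6% of Shank1. Dpys, of pyrimidine breakdown, had 4.0 kb in K27M and 42 kb in EZHIP. Krt82 and Krt72-ps, from the keratin cluster on chromosome 15, had 4.4 and 22.4 kb in K27M and 36.4 and 173 kb in EZHIP. The same pattern was seen at Tubb4, with 4.20 against 34.6 kb, and at Olfr1413, with 6.4 against 107 kb.

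**Figure D3:**
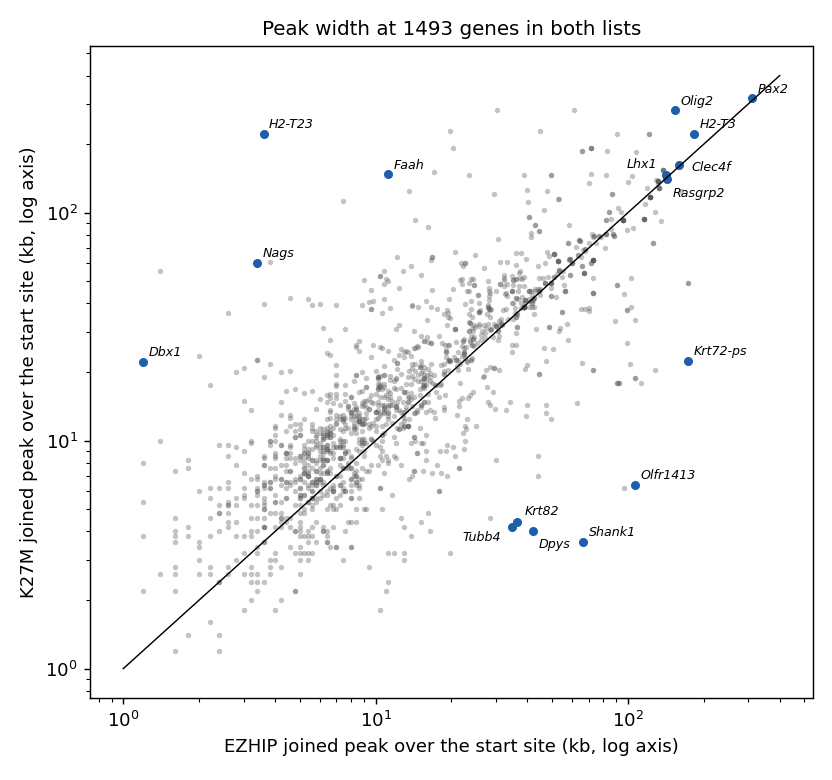
Width of the joined EZHIP peak (horizontal) and of the joined K27M peak (vertical) over the start site of each of the 1493 genes in both lists, in kb on log axes, 1 point per gene, with a line of equal width and the named genes in blue. More points lie above the line (1015) than below it (439), with H2-T23 and Dbx1 far above it and Shank1 and Krt72-ps far below.

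The classes also differed in features that did not define them. The density of CG dinucleotides within 500 bp of the start site had a median of 6.0 per 100 bp at shared genes (quartiles 3.90 and 8.30), 5.6 at K27M-only genes (3.00 and 7.83) and 3.90 at EZHIP-only genes (1.70 and 6.20). Over all genes it was 4.20, and at the 3876 genes marked in K27R and in neither inhibitor list it was 1.70. A density of at least 3 per 100 bp was found at 82.0%, 75.9% and 59.8% of the 3 classes, against 57.6% of all genes. EZHIP-only genes had the lowest median of the 3 classes under all 12 alternatives. With K27M trimmed to the same covered length, however, a density of at least 3 per 100 bp was found at 81.2% of shared, 68.7% of K27M-only and 69.7% of EZHIP-only genes, so that the order of the last 2 shares turned.

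CG density was also set beside the overlap of the peaks. K27M-only genes whose peak overlapped no EZHIP peak had a median of 6.0 per 100 bp and narrow peaks (4.60 kb), as Sox9 and Kcnd2 did. EZHIP-only genes whose peak overlapped no K27M peak had a median of 4.20 and peaks of 4.80 kb. Where the peaks of the lists overlapped away from the start site, the medians were 4.4 and 2.50 per 100 bp, under peaks of 17.2 and 30.4 kb, as at Hba-a1 and Krt2. Within each class, genes in peaks that overlapped the other list thus had the lower CG density.

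**Figure D4:**
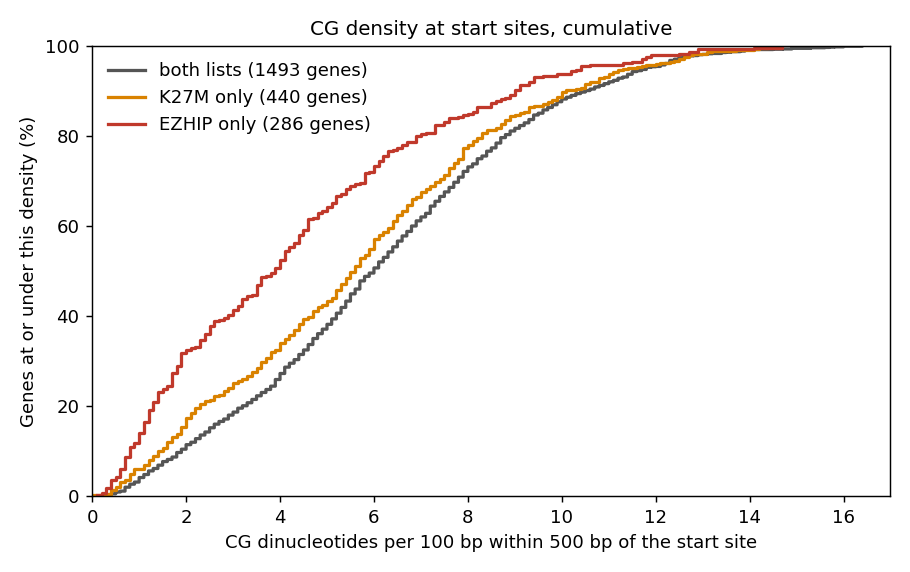
Cumulative share of genes in percent (vertical) at or under a given density of CG dinucleotides per 100 bp within 500 bp of the start site (horizontal) for 1493 genes in both lists (grey), 440 in K27M alone (orange) and 286 in EZHIP alone (red). The red curve lies to the left, with a median of 3.90, against 5.6 for the orange and 6.0 for the grey curve.

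The K27R regions around the start sites differed as well. Their median length was 136 kb at shared genes, 52.7 kb at K27M-only genes and 107 kb at EZHIP-only genes, and 87.0 kb at genes in neither list. Epha5, Kit and Unc5d were in K27R regions of 20.2, 26.2 and 8.0 kb and kept K27M peaks of 4.4, 8.80 and 7.20 kb. Krt24 and Mobp lay in K27R regions of 318 and 373 kb and kept EZHIP peaks of 46.2 and 29.2 kb. Longer regions for EZHIP-only than for K27M-only genes were found under all 12 alternatives.

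Chromosome 15, singled out because earlier results of these lists had shown an excess of EZHIP peaks there, held 40 EZHIP-only and 15 K27M-only genes among 797. The share of EZHIP-only genes was 5.02% there and 0.434 to 2.11% on the other autosomes. The ratio of EZHIP to K27M cover was 1.8 on chromosome 15 and 0.67 to 1.18 elsewhere. EZHIP-only genes there included the keratin cluster, Smc1b, the short Scn8a entry and Csf2rb. The apolipoprotein L genes Apol7b, Apol7c and Apol11a were among them too and shared an EZHIP peak of 102 kb. Without chromosome 15, 246 genes were in EZHIP alone and 425 in K27M alone. Whether a property of the EZHIP library or line on this chromosome contributed was not tested.

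**Figure D5:**
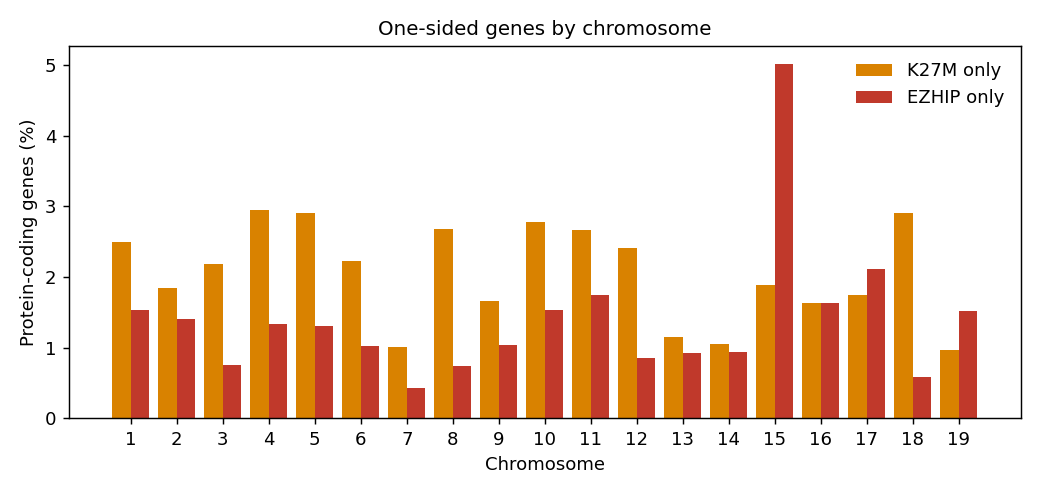
Protein-coding genes of each autosome with a start site in K27M peaks alone (orange) and in EZHIP peaks alone (red), in percent of the genes of that chromosome. The red bar of chromosome 15 stands at 5.02%, while red bars elsewhere lie between 0.434 and 2.11%.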

How the data were processed

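H3K27me3 was profiled by ChIP-Seq of MNase-digested, crosslinked chromatin in MEFs, with 1 library per line and 5 samples in the series. By the study's methods and the submitters' processing notes, the authors aligned reads to mm9 with Bowtie 1.0.0, made signal tracks with deepTools and called broad peaks with MOSAiCS-HMM. Whether the deposited lists come from that run, and whether the spike-in scaling entered the calls, is not given in the sources used here. The deposited values are peak positions on a grid of 200 bp, with no counts, scores or p-values, and depth is therefore unknown.

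Groups came from the sample titles. Peaks up to 10000 bp apart were joined within each list, and GENCODE vM1 genes were classed by their 5′ end. NCBIM37 sequence, the same build as mm9, gave the CG counts. No test was run. Families were matched by symbol, and 46 were counted. The members and lists were chosen with earlier results of these data known. Named genes are the 12 with the largest margin in each class of 1 list (1 per peak, no predicted symbols), the 6 highest and 6 lowest width ratios, the 6 widest shared peaks, and members of families with at least 3 genes in 1 list alone. Some genes that this rule names are not reported here. Other genes, Sox9, Kit and the fibroblast markers among them, were named after their values were seen. Printed windows hold 250 bases before the start and no annotated exon, for which Smc1b was passed over.

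Python 3.11.15, numpy 2.4.6, scipy 1.17.1 and matplotlib 3.10.9 were used. Tested on simulated data, the interval tools gave 0 disagreements over 50 lists. Alternatives were other joining distances, a minimum peak width, a tolerance around the start site, any transcript start, X added, chromosome 15 left out, and lists trimmed to the same number of peaks or covered length.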

Additional observations from a re-analysis of the deposited data

How the results depend on the processing

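Of the 12 alternatives, the one that counts start sites in deposited peaks was chosen after seeing the data. Trimming K27M to its widest peaks, to the covered length of EZHIP, left out 1031 of 2991 K27M peaks. These included all K27M peaks narrower than 4.80 kb, while EZHIP was not trimmed, so that a shift towards EZHIP alone is built into this setting. With it, 259 genes were in K27M alone and 435 in EZHIP alone. Of the K27M genes 83.8% were in EZHIP, of the EZHIP genes 75.5% were in K27M, and the median width ratio was 1.24. Counting start sites within 5000 bp of a peak gave 534 genes in EZHIP alone and 1932 in both, with shares of 80.0% and 78.3%. Adding chromosome X gave 74.5% of K27M genes in EZHIP. The width ratio was 1.42 without joining, 1.28 with joining up to 5000 bp and 1.14 with joining up to 20000 bp. Other values of these results stayed within 1.5 times the count or within the counting interval. Genes in K27M alone outnumbered those in EZHIP alone in 10 of 12 alternatives. The family side that held more genes was kept in 12 of 12 for forkhead, potassium channel, keratin, Frizzled and antagonist, olfactory receptor, other homeobox, and sodium and calcium channel genes. It changed or tied for Hox genes without joining and by deposited peaks, for glutamate receptor, axon guidance and solute carrier genes with the same covered length, for solute carrier genes within 5000 bp, and for nuclear receptor genes with any transcript start. With 1 library per line no replicate could be left out, and depth is unknown.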

Other observations

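Several gene groups outside the families above were noticed after the classes were seen, and are given as counts only. Over all genes, 2.05% were in K27M alone and 1.34% in EZHIP alone. Of 36 H2 genes of the major histocompatibility complex, which present peptides to T cells, 10 were in both lists, 7 in EZHIP alone and 2 in K27M alone (H2-K1 and H2-T22). The EZHIP-only genes included the class II genes H2-Aa and H2-Ob, which shared an EZHIP peak of 58.0 kb. H2-Eb1 had its start site 27 bp inside a peak of 116 kb. H2-DMb1 and H2-DMb2 shared a peak of 21.0 kb, and H2-M10.5 and H2-M10.6 shared the peak of 67.0 kb. The 7 genes thus rest on fewer peaks. Interferon alpha genes had 4 of 12 in EZHIP alone and 0 in K27M, of which Ifna5 lay in an EZHIP peak of 1.8 kb and 98.2 kb from K27M. The lysozyme genes Lyz1 and Lyz2 shared an EZHIP peak of 22.6 kb that also lay close to a K27M peak, 0.324 kb from the Lyz1 start site.

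On the K27M side, 4 of 10 globin genes (Hba-a1, Hba-a2, Hbq1a and Hbq1b) were in K27M alone and 0 in EZHIP alone. All 4 lay under 1 K27M peak of 31.2 kb, so that the count rests on that peak. EZHIP was 1.51 and 3.71 kb from the start sites of Hba-a1 and Hba-a2, which encode the adult alpha chain of haemoglobin. Regulators of G protein signalling had 5 of 23 in K27M alone and 2 in EZHIP alone, and Rgs7 lay 985 kb from EZHIP. Synaptotagmin genes, which include calcium sensors of vesicle release, had 8 of 17 in both, 3 in K27M alone and 0 in EZHIP alone, with Syt1 in a K27M peak of 2.60 kb and 2001 kb from EZHIP. Genes of the Polycomb system were not counted as a group, and single ones were noticed in each class. Cbx8, a subunit of Polycomb Repressive Complex 1, lay in a K27M peak of 40.6 kb, only 0.318 kb from EZHIP. Phc2, of the same complex, lay in an EZHIP peak of 22.6 kb, 217 kb from K27M.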
